A study of Mus musculus with 6 samples.

Results

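The genes described here are the cytosolic ribosomal proteins, the protein building blocks of the ribosome that works outside the mitochondria. They were taken by symbol from the RNA table of a spatial multiome experiment, as every gene named Rpl or Rps with a number (with or without a letter or a paralog ending), together with Rplp0, Rplp1, Rplp2 and Rpsa. The rule matched 76 of 7507 genes. One of these, Rps6kl1, is a kinase-like gene and no part of the ribosome, so sums were taken over the other 75 members, 46 of the large subunit (Rpl) and 29 of the small subunit (Rps). Rps3a1 and Fau also encode ribosomal proteins, but their symbols lie outside the rule and they are given apart.

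The libraries came from 10 µm sections of fresh frozen adult mouse brain, with no genetic change or treatment named. The sample labels give an age of 12 weeks, whereas the collection protocol in the same labels gives 8 to 12 months for adult animals. In each of 3 sections, Barcoding by Activated Linkage of Indexes (BALI) wrote a 4-digit barcode onto cDNA by light, with 1 index for the granular layer of the dentate gyrus (DG) and another for the CA1 region. This gave 6 libraries, 1 per region and section. Whether the sections came from separate animals is not stated in the labels, so p-values measure the spread between these libraries. Sections had been tagmented for chromatin profiling on the same slide, and the chromatin libraries were not used here.

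Ribosomal proteins are made from some of the most abundant mRNAs of any cell, most of them short. In vertebrates these mRNAs begin with a run of pyrimidines, the 5′ terminal oligopyrimidine (TOP) tract, through which mTORC1 signalling sets how strongly they are translated. In neurons they are found in the cell body and also in dendrites and axons, where local ribosome repair and synthesis have been described.

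A UMI is a short random tag that counts 1 captured cDNA molecule, and a library's total is its depth. The totals were 17999, 4572 and 6298 UMIs in DG and 9357, 2844 and 4865 UMIs in CA1, for sections 1, 2 and 3, so section 1 was the deepest in both regions. Markers of the labelled cells were scarce at this depth. Of 5 DG granule cell markers only Calb1 was listed, with 2 UMIs, both in CA1 libraries, and the 5 CA1 pyramidal cell markers held 19 UMIs in all, of which 8 were in DG libraries. Among the CA1 markers Pou3f1 held 2, 2 and 2 UMIs in DG and 4, 0 and 0 UMIs in CA1. Wfs1 and Neurod6, with 2 UMIs each, were seen in CA1 alone, Fibcd1, with 1 UMI, in DG alone, and Mpped1 in both. The glutamatergic neuron markers held between 1.11% and 1.38% of the UMIs in every library. Because each library is a bulk of many cells, fewer cells of a type and less RNA per cell cannot be told apart.

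Across the 6 libraries, the 75 ribosomal proteins held 1586 of 45935 UMIs, 920 in Rpl and 666 in Rps genes. The UMIs summed over the libraries ranged from 2 to 88 per member with a median of 17, against a median of 3 over all genes listed. A UMI in all 6 libraries was found for 16 members, or 21.3%, against 5.25% of all genes. The 10 members with most UMIs held 32.9% of the total. These were Rplp1, Rpl37, Rps29, Rps24, Rpl37a, Rps3, Rpl41, Rpl13, Rps14 and Rps27a.

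Section 1 stood apart in the share of UMIs that went to ribosomal proteins, in both regions. The share was 4.03%, 2.36% and 2.48% in DG for sections 1, 2 and 3, with exact Clopper-Pearson 95% intervals of 3.75 to 4.33, 1.94 to 2.84 and 2.11 to 2.89. In CA1 it was 4.40%, 2.14% and 2.55%, with intervals of 4.00 to 4.84, 1.64 to 2.75 and 2.12 to 3.03. The intervals, which cover counting error only, did not overlap between section 1 and any library of sections 2 and 3. The share of section 1 over the mean of the other sections was 1.66-fold in DG and 1.88-fold in CA1. These ratios are a description without a test, since section 1 was already known to stand apart when the comparison was chosen.

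**Figure D1:**
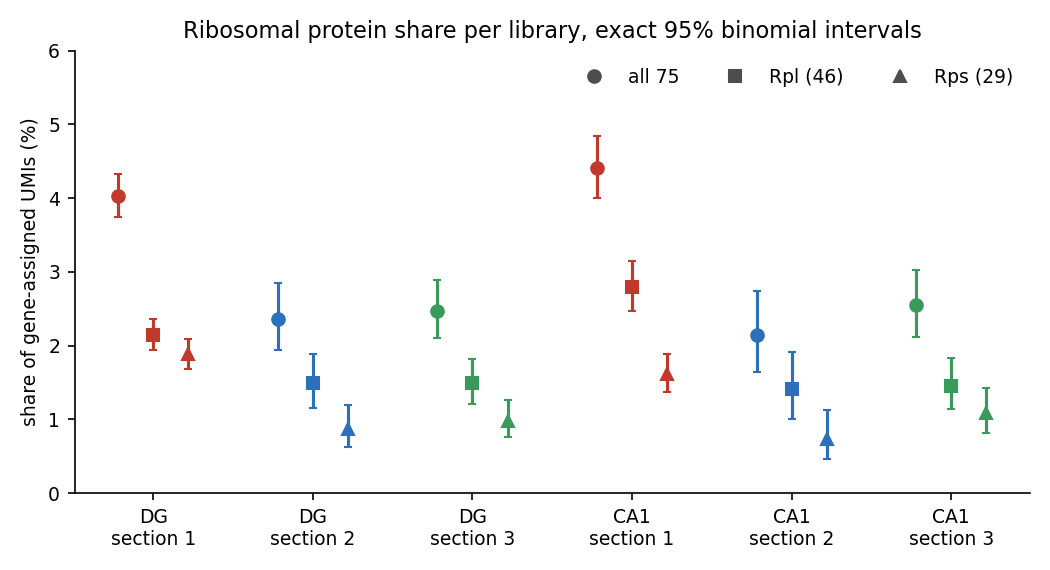
Share of gene-assigned UMIs (%) held by all 75 ribosomal proteins (circles), the 46 Rpl genes (squares) and the 29 Rps genes (triangles) in each of the 6 libraries, coloured by section, with exact 95% binomial intervals as bars. All 75 together held 4.03% and 4.40% in the section 1 libraries and between 2.14% and 2.55% in the other 4.

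Both subunits took part. The Rpl share was 2.14%, 1.49% and 1.49% in DG and 2.79%, 1.41% and 1.46% in CA1. The Rps share was 1.88%, 0.875% and 0.984% in DG and 1.61%, 0.738% and 1.09% in CA1. For each subunit the 2 libraries of section 1 lay above the other 4. The ratio of section 1 to the mean of sections 2 and 3 was 1.44-fold in DG and 1.95-fold in CA1 for Rpl, and 2.03-fold in DG and 1.77-fold in CA1 for Rps.

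Between regions the shares did not move one way. The log2 ratio of the ribosomal protein share in DG over CA1, taken within a section, was -0.13, 0.14 and -0.04 for sections 1, 2 and 3, with a mean of -0.01 ± 0.14 (SD, n = 3). For Rpl the mean was -0.09 ± 0.25 and for Rps 0.11 ± 0.22 (SD, n = 3). In each case the mean was smaller than the spread between sections.

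The large subunit genes held more UMIs than the small subunit genes in all 6 libraries. Rpl over Rps was 1.14, 1.70 and 1.52 in DG and 1.73, 1.90 and 1.34 in CA1. The mean was 1.55 ± 0.28 (SD over the 6 libraries, of which DG and CA1 of a section share tissue). Per gene the order of the UMIs summed over the libraries was the other way, at 20.0 per Rpl member and 23.0 per Rps member. DG section 1 held 725 of the 1586 ribosomal protein UMIs and weighs most in these sums, and the order per gene did not hold in each library. It was reversed, with more UMIs per Rpl gene, in DG section 2 (68 Rpl and 40 Rps UMIs). The same was seen in CA1 section 1 (261 and 151 UMIs) and CA1 section 2 (40 and 21 UMIs). The lowest ratio was that of DG in section 1, with an exact 95% interval of 0.982 to 1.32, and the interval of CA1 in the same section, 1.41 to 2.13, did not overlap it. The log2 ratio of Rpl to Rps in DG minus that in CA1 was -0.60 in section 1, -0.16 in section 2 and 0.18 in section 3, so the lower ratio in DG was not seen in every section.

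**Figure D2:**
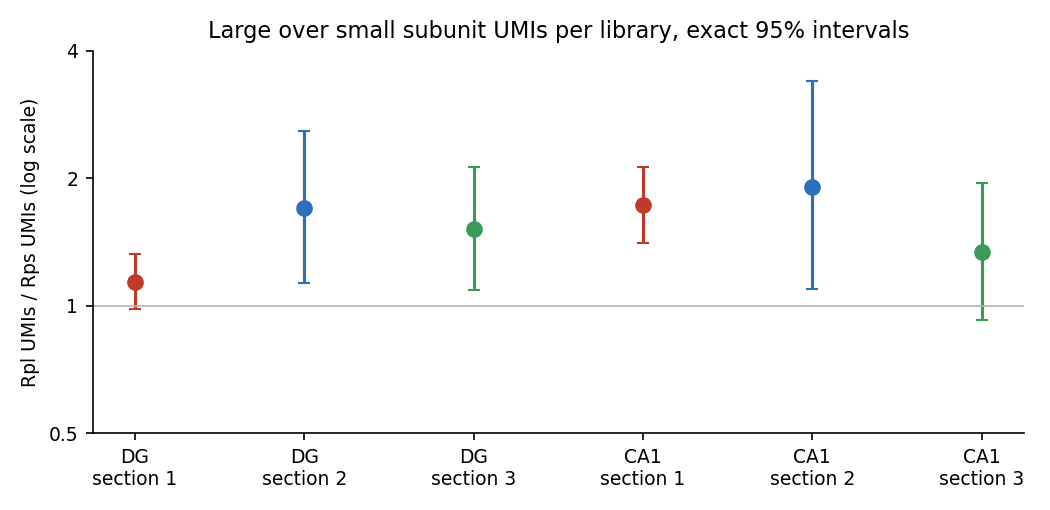
Ratio of summed Rpl UMIs to summed Rps UMIs in each library on a log axis, coloured by section, with exact 95% intervals as bars and a line at equal counts. The ratio was lowest, 1.14, in DG section 1 and lay between 1.34 and 1.90 in the other 5 libraries.

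The section difference was not carried by the leading members alone. Without the 10 members with most UMIs, the other 65 held 2.72% and 2.90% in the section 1 libraries and between 1.56% and 1.69% in the other 4, a ratio of 1.65-fold in DG and 1.78-fold in CA1. The 25 members ranked lowest by UMIs, with 202 UMIs in all, gave 1.14-fold in DG and 1.74-fold in CA1. The 54 members with a transcript of up to 1 kb gave 1.63-fold in DG and 1.88-fold in CA1, and the 21 members with a longer transcript 1.75-fold and 1.87-fold.

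Reads of ribosomal protein genes are hard to place, because the genome holds many processed copies of their mRNAs. RefSeq names at least 1 pseudogene for 58 of the 75 members and 298 in all, the most for Rpl31, with 24, and Rps12, with 23. Exons of 22 members overlap an exon of another gene, and as the counting was run with default options that ignore strand, reads there could have been dropped. The values of these members are uncertain for that reason. The 17 members with no named pseudogene gave a section 1 ratio of 1.64-fold in DG and 1.72-fold in CA1. The 14 that also lacked an exon overlap gave 1.75-fold and 1.49-fold. These ratios rest largely on a low section 2. The 17 held 0.917%, 0.372% and 0.746% in DG and 0.887%, 0.352% and 0.678% in CA1, for sections 1, 2 and 3. In CA1 the 14 held 0.727%, 0.316% and 0.658%. In DG the 14 held 0.262% in section 2 and 0.540% in section 3. In each case section 1 was highest, and section 3 lay nearer to section 1 than to section 2. Copies with rows of their own included Rpl37rt, a retrogene copy of Rpl37 with 28 UMIs, Rps15a-ps6 with 17, Rpl14-ps1 with 15 and Rps19-ps3 with 3, chosen after their values were seen.

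Single members were compared in CPM, UMIs scaled to a library of 1000000. The stalk of the large subunit, which recruits the translation factors, is built of Rplp0, Rplp1 and Rplp2. Rplp1 was the most abundant member, at 2167, 1750 and 1270.2 CPM in DG and 2351, 703 and 1850.0 CPM in CA1, for sections 1, 2 and 3. It was highest in section 1 in both regions, although CA1 section 3 and DG section 2 came close. Rplp2 was at 556, 219 and 159 CPM in DG and 1069, 0 and 411 CPM in CA1. Rplp0 held 1, 0 and 1 UMIs in DG and 2, 5 and 1 UMIs in CA1, too few for the fit across genes described below. In CPM its section 1 value lay between those of sections 2 and 3 in both regions. Rpl5 and Rpl11 bind the 5S rRNA and, when free, the p53 regulator Mdm2. They differed in abundance, with 2 UMIs in all for Rpl5 and 26 for Rpl11. Rpl11 stood at 833, 219 and 476 CPM in DG and 534, 352 and 206 CPM in CA1, highest in section 1 in both regions.

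In the small subunit, Rps2, Rps3, Rps9 and Rps23 line the mRNA entry and decoding site. Together they showed the widest section ratio of the 6 structural groups, 3.33-fold in DG and 2.99-fold in CA1, on 98 UMIs. The counts were 56, 2 and 9 UMIs in DG and 23, 0 and 8 UMIs in CA1, so these ratios rest on few UMIs outside section 1. Rps3 held 45 of the 98 UMIs, at 1389, 219 and 794 CPM in DG and 1176, 0 and 617 CPM in CA1. The stalk, the 5S particle, the polypeptide exit tunnel, the rim of its exit and the subunit head, with 28 to 168 UMIs each, ranged from 1.18-fold to 1.95-fold in DG and from 0.972-fold to 1.92-fold in CA1. The lowest of these was in CA1 for the genes of the polypeptide exit tunnel (Rpl4, Rpl17 and Rpl39), where Rpl39 was highest in CA1 section 2, with 4 UMIs.

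Rps24, a small subunit protein needed for maturation of the 18S rRNA, was the member with the smallest p in the fit of the 6 libraries by section. It was at 1500.1, 219 and 159 CPM in DG and 1817, 1055 and 617 CPM in CA1. Both section 1 libraries lay above the other 4. Rps27a, which is made as a fusion with ubiquitin, was at 1500.1, 219 and 476 CPM in DG and 641, 0 and 0 CPM in CA1. It was likewise highest in section 1 of each region. A count of 0 in CA1 allows up to 3 UMIs, which is 1055 CPM in section 2 and 617 CPM in section 3.

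Not every abundant member followed. Rps29, a small zinc-binding protein of the subunit head, was at 1389, 1531 and 1111 CPM in DG and 1069, 703 and 1644 CPM in CA1, and section 1 lay within the range of the others in both regions. Rpl41, the smallest ribosomal protein, was at 1000.1, 437 and 794 CPM in DG and 962, 1055 and 1439 CPM in CA1. Rpl13 was at 833, 656 and 953 CPM in DG and 1282, 1055 and 1028 CPM in CA1. Rpl9 was at 500.03, 437 and 953 CPM in DG and 855, 1055 and 411 CPM in CA1. For these the section 1 values overlapped those of sections 2 and 3.

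**Figure D3:**
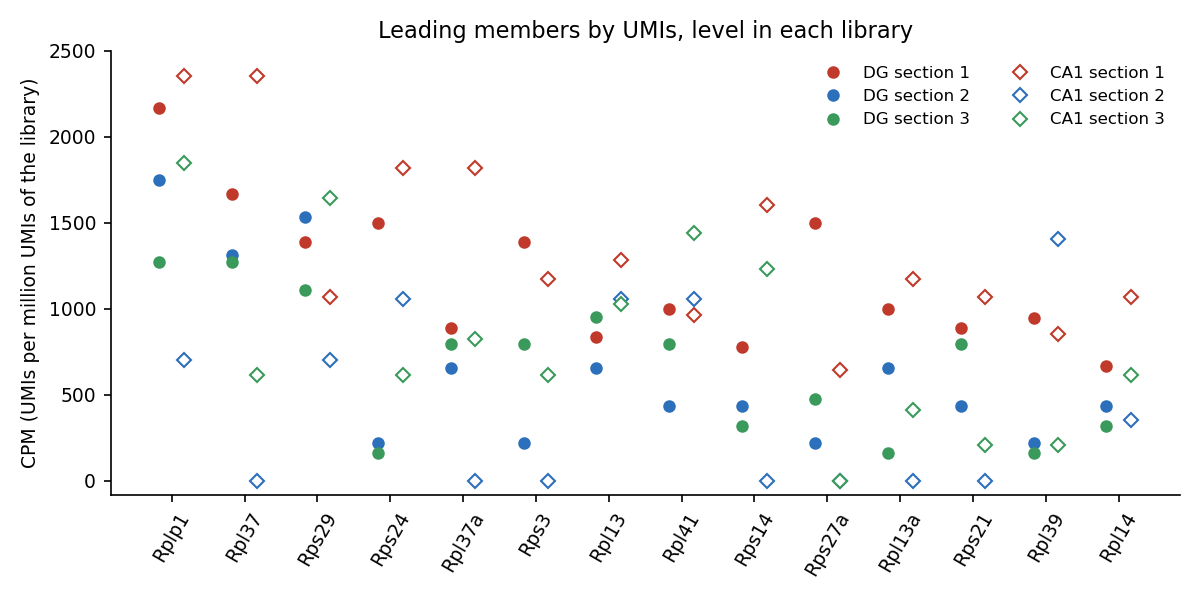
Level in CPM of 14 of the 15 members with most UMIs (filled circles DG, open diamonds CA1, coloured by section), in order of summed UMIs. Rplp1 ranged from 703 to 2351, Rps24 was at 1500.1 and 1817 in section 1 and at most 1055 elsewhere, and Rps29 showed no order by section.

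A test across genes was made with edgeR's quasi-likelihood test on the UMIs, with region as a covariate, for 361 genes with at least 20 UMIs over the 6 libraries. The section 1 arm is 1 section, whose DG and CA1 libraries entered as separate libraries, and section 1 was set against the rest with its position known. The standard errors and p-values therefore measure the spread between these libraries, are too small for a difference between sections, and describe this section only. Of the members 32 passed this filter. The filter leans towards genes that are high in the deep section 1, and 15 of the 32 had fewer than 8 UMIs in sections 2 and 3. After Benjamini-Hochberg adjustment over all genes tested, 1 member, Rps24, passed a threshold of 0.05, where the background was 0.554% of the genes tested. It was 3.74-fold higher in section 1 by pooled UMIs (44 against 8), with a log2 fold change of 1.90 ± 0.48 (SE) and an adjusted p of 0.028 in edgeR's test. Next was Rps27a, with a log2 fold change of 2.27 ± 0.67 and an adjusted p of 0.089 in the same edgeR test. With the regions summed per section, 1 section against 2, a fit in which the lone section is assumed to vary like the others, edgeR's adjusted p was 0.058 for Rps24 (log2 fold change 1.76) and 0.044 for Rps27a (2.32).

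Without adjustment, 11 members had p under 0.05 in the section comparison, all higher in section 1, where 8.03% of the genes tested did so in that direction. The fitted log2 fold change was above 0 for 29 of 32 members, with a median of 0.98, against 52.1% and a median of 0.03 over all genes tested. The section 1 libraries both lay above the other 4 for 17 members and both below for none, while 13.9% of the genes tested lay above and 6.37% below. Rpl and Rps members had medians of 0.98 and 0.95. At the low end were Rps15a at -0.16 ± 0.67, Rpl9 at -0.15 ± 0.60 and Rps29 at -0.07 ± 0.38, each within its standard error of 0.

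A filter in which section 1 had no part gave the same side. Of the 18 members with at least 8 UMIs in sections 2 and 3 summed, 14 had a higher pooled level in section 1, against a background of 31.2% of all genes that passed, or 109 of the 376 that were not members. The median log2 ratio was 0.57 for the members and -0.32 for the other genes. This filter leans the other way, towards genes that are high in sections 2 and 3. With it, 3 members, Rps24, Rpl37 and Rps3, were under the adjusted threshold in the edgeR fit of the 6 libraries, against 1.78% of the genes tested, and the same limit of 1 section in the section 1 arm holds for them.

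The call of Rps24 rested on few UMIs in sections 2 and 3 and was lost in part of the repeats. Its adjusted p in the fits that kept edgeR but left out single libraries or sections ran from 0.013 to 0.54, and it stayed under 0.05 only without CA1 section 1 or without CA1 section 2. With DESeq2 it was 0.77. The fitted difference kept its sign throughout, between 1.29 and 2.88 in those fits.

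Other measures moved with section 1, and their part in the result was not tested. Depth was 17999 and 9357 UMIs in section 1 and at most 6298 elsewhere. Transcripts of up to 1 kb that are not members stood at 1.19-fold in DG and 1.31-fold in CA1, and those over 8 kb stood at 0.955-fold and 0.925-fold. Members are short, with a median transcript of 734 bases against 3364 bases for other genes. The 10 nuclear noncoding RNAs on the list, Malat1 and Meg3 among them, stood at 0.635-fold in DG and 0.709-fold in CA1. Oligodendrocyte markers (4 of 5 listed) held 0.772% and 0.983% in section 1 and 0.459% to 0.740% elsewhere, with Mog at 2 UMIs in all. Astrocyte markers (3 of 5 listed) held 0.139% to 0.156% in section 1 and 0.176% to 0.247% elsewhere. Microglia markers held 1 UMI, endothelial markers 4, and no red blood cell marker was listed.

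Other parts of the translation machinery held fewer UMIs, and their section ratios varied. Other TOP mRNAs (18 genes, 206 UMIs) stood at 1.16-fold in DG and 1.44-fold in CA1 in section 1. Among them Tpt1, which encodes a translationally controlled growth protein, was at 667, 219 and 476 CPM in DG and 748, 352 and 0 CPM in CA1. Fau, the source of the small subunit protein eS30, was at 444, 0 and 159 CPM in DG and 855, 1055 and 206 CPM in CA1. Eef1a1, the elongation factor that brings aminoacyl-tRNA to the ribosome, was at 333, 1312 and 794 CPM in DG and 962, 352 and 411 CPM in CA1. Its section 1 value was the lowest in DG and the highest in CA1. Eef2, the translocase, held 10 UMIs and Gnb2l1, the small subunit scaffold RACK1, 2 UMIs. Rps3a1 was at 389, 0 and 476 CPM in DG and 962, 352 and 0 CPM in CA1.

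Initiation factors (29 genes, 179 UMIs) gave 1.02-fold in DG and 1.22-fold in CA1, elongation factors (7 genes, 62 UMIs) 0.678-fold and 1.91-fold, and ribosome biogenesis genes (20 genes, 55 UMIs) 1.43-fold and 1.32-fold. Mitochondrial ribosomal proteins (41 genes, 114 UMIs) gave 1.54-fold and 0.702-fold, and the nuclear-encoded respiratory chain (69 genes, 593 UMIs) 1.05-fold and 1.22-fold. In the section fit, 5 of the other TOP mRNAs, 6 respiratory chain genes and 1 gene each of the initiation factors, elongation factors and mitochondrial ribosomal proteins were tested, and none passed the threshold in either direction. No biogenesis gene was tested.

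**Figure D4:**
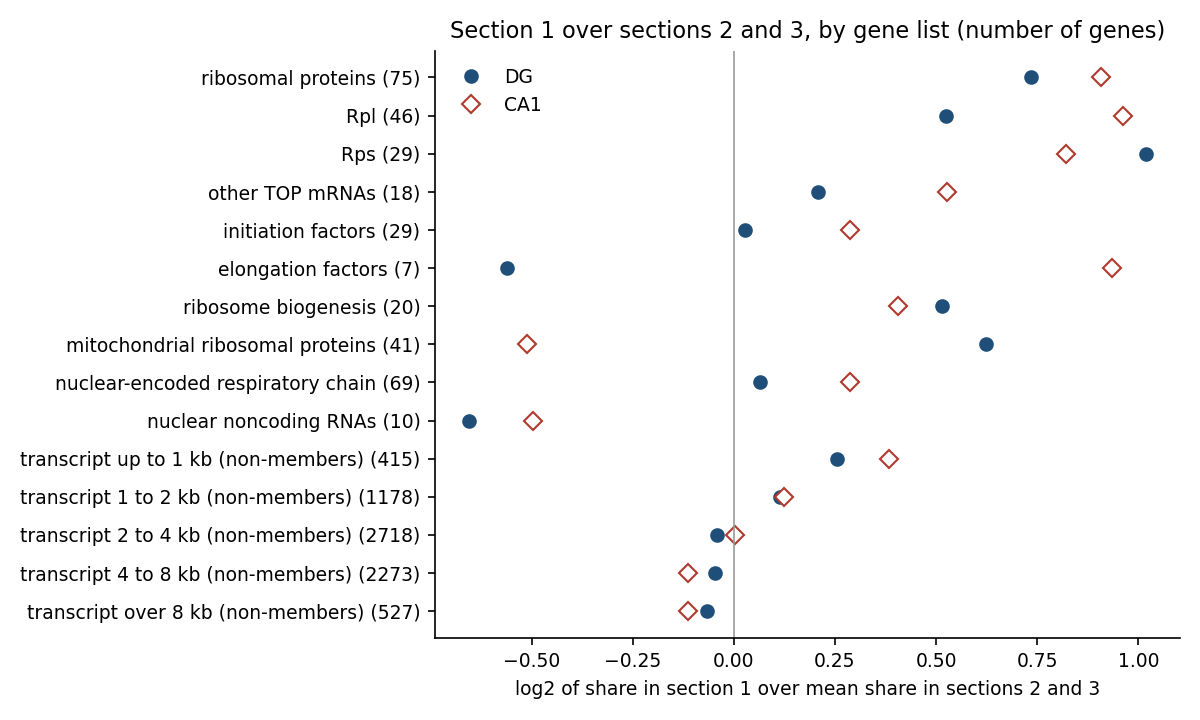
Log2 of the share of UMIs in section 1 over the mean share in sections 2 and 3, for DG (filled circles) and CA1 (open diamonds), by gene list with the number of genes in brackets. Ribosomal proteins lay at 0.74 and 0.91, non-member transcripts of up to 1 kb at 0.26 and 0.38, and nuclear noncoding RNAs at -0.66 and -0.50.

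Between DG and CA1, no member passed the adjusted threshold in edgeR's test of 3 libraries against 3, where 0.277% of the 361 genes did. DESeq2 called none either. At an unadjusted p under 0.05 there were 2 members, Rps20 and Rps27a, both higher in DG, against 4.71% of the genes tested in either direction and 2.49% in that direction. Rps20, a protein of the subunit head, was at 1111, 437 and 635 CPM in DG and 214, 352 and 0 CPM in CA1. All DG values lay above all CA1 values, with a log2 fold change of 2.13 ± 0.86 and an adjusted p of 0.82 in edgeR's test. Rps15, with 1.57 ± 0.85, and Rps27a, with 1.43 ± 0.69, came next. The lowest were Rpl23a at -1.22 ± 0.79, Rps14 at -0.97 ± 0.56 and Rplp2 at -0.75 ± 0.75.

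The DG values lay above all CA1 values for 2 members tested and below for 2, while 5.26% of the genes tested lay above and 4.71% below. The median over members was -0.03, with 15 of 32 above 0. Over all genes tested it was -0.03 too, with 47.9% above 0. Rpl members had a median of -0.35 and Rps members of 0.27. An exact two-sided permutation test on log2(CPM + 1) cannot go below 0.1 with 3 libraries against 3, and that value was reached by 4 of the 32 members tested, Rps20, Rpl23a and Rpl13 among them, against 9.97% of the genes tested. Rpsa, which also serves as the laminin receptor, held 5, 2 and 2 UMIs in DG and 2, 0 and 0 UMIs in CA1. Rps6, the small subunit protein phosphorylated by S6 kinases, held 5, 1 and 1 UMIs in DG and 0, 0 and 1 UMIs in CA1.

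**Figure D5:**
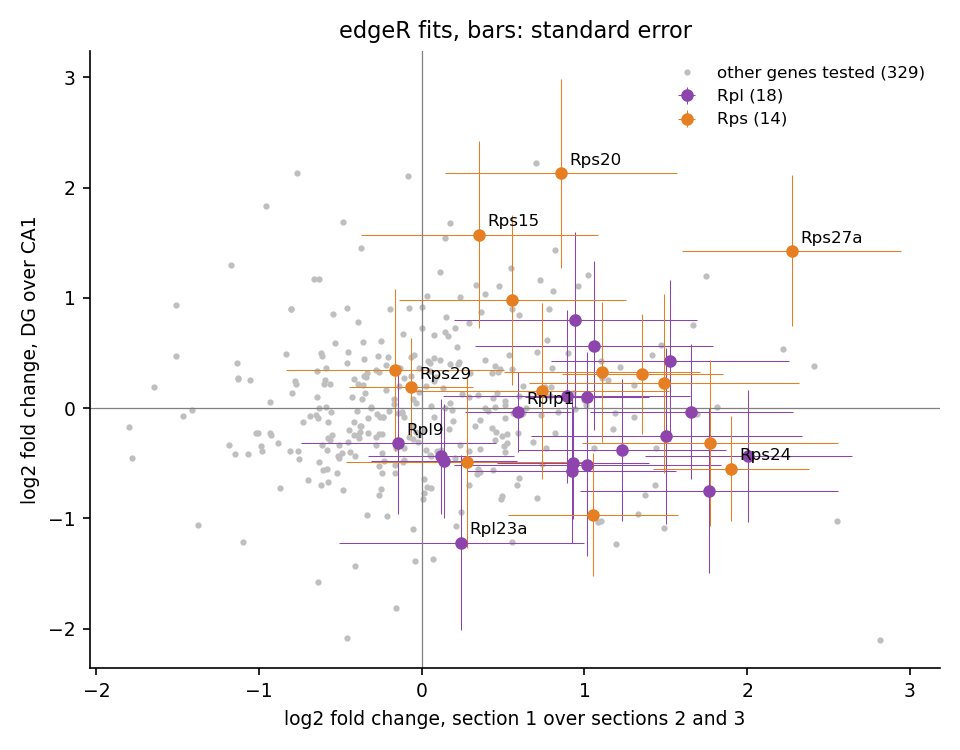
Fitted log2 fold change of section 1 over sections 2 and 3 (horizontal) and of DG over CA1 (vertical) for 18 Rpl and 14 Rps members, with standard errors as bars, and for 329 other genes tested (grey). Members lie mostly to the right of 0, from -0.16 (Rps15a) to 2.27 (Rps27a), and on both sides of 0 vertically, from -1.22 (Rpl23a) to 2.13 (Rps20).

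An interaction term was fitted for the section difference between regions. In each region its section 1 arm is a single library, so the term describes these libraries and does not show that the regions differ or are alike. No member and none of the 361 genes passed the adjusted threshold, and 3 members, Rpl37 and Rpl31 among them, had an unadjusted p under 0.05, against 5.26% of all genes tested. In each the difference of section 1 was smaller in DG. Rpl37 was at 1667, 1312 and 1270.2 CPM in DG and 2351, 0 and 617 CPM in CA1, with an interaction of -2.40 on the log2 scale that rests on a count of 0 in CA1 section 2. Rpl31 held 8, 1 and 3 UMIs in DG and 9, 0 and 0 UMIs in CA1.

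Summed UMIs are also given per kilobase of 1 curated transcript. Reverse transcription was primed at the poly(A) tail, so 1 captured cDNA is counted as 1 UMI and not once per fragment. Whether capture depends on transcript length was not tested. Values per kilobase therefore raise short genes and are not a measure of level. On summed UMIs per kilobase the highest were Rplp1 at 188, Rps29 at 151, Rpl41 at 98.0, Rps21 at 87.0 and Rpl37 at 79.6. The lowest were Rpl7l1 at 0.767 and Rpl5 at 0.991. The curated transcripts of Rps15a (5136 bases) and Rps20 (3446 bases) are longer than those of the other members, so their values per kilobase, 5.26 and 8.42, depend on that choice. Members with a paralog ending held 3 UMIs (Rpl36al), 2 UMIs (Rpl7l1) and 2 UMIs (Rpl22l1). Rps6kl1, the kinase-like gene, held 4, 0 and 1 UMIs in DG and 1, 0 and 0 UMIs in CA1.

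The start sites of the members were read from RefSeq promoters on GRCm38.p6 (mm10), found for 56 of the 75 members. In the 30 bases from 15 before the start to 15 from the start, an unbroken run of at least 8 C or T letters on the gene's strand was present for 22 of 56 members (39.3%), 42.9% of Rpl and 33.3% of Rps, against 12.0% of all 32851 starts in the table and 11.9% of the other genes of the RNA table. A cytosine at the start itself was found for 33.9% of members and 16.3% of all starts. The windows below show members with and without such a run, capitals marking the longest run where it reached 8, for members with both section 1 libraries above the other 4 (Rps24, Rps3, Rpl37, Rpl13a), for others whose section 1 values overlapped the rest (Rpl13, Rpl41, Rpl9), and for Rplp2 and Rps6, whose runs cross the start.
Rps24, chr14:24490663-24490692, plus strand: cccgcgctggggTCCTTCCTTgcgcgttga
Rps3, chr7:99483695-99483724, minus strand: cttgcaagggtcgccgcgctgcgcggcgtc
Rpl37, chr15:5116598-5116627, plus strand: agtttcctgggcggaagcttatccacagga
Rpl13a, chr7:45128731-45128760, minus strand: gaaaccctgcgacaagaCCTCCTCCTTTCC
Rpl13, chr8:123102335-123102364, plus strand: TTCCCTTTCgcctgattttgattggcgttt
Rpl41, chr10:128549154-128549183, minus strand: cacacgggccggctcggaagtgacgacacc
Rpl9, chr5:65391417-65391446, minus strand: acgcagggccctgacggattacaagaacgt
Rplp2, chr7:141447636-141447665, plus strand: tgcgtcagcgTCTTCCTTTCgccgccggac
Rps6, chr4:86857353-86857382, minus strand: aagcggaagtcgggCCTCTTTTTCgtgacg

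In these windows the run crossed the start in Rps24, Rplp2 and Rps6, lay before it in Rpl13 and after it in Rpl13a. Windows with no run were found among the members whose section 1 values stood apart (Rps3 and Rpl37) and among those whose values overlapped (Rpl41 and Rpl9). A match describes letters only, and its absence says only that they are not in this window.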

How the data were processed

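Poly(A) RNA was profiled in 6 libraries (DG and CA1 in each of 3 sections). The authors split barcodes with cutadapt (4.1), mapped reads to mm10 with STAR (2.7.9a), assigned them with featureCounts (Subread 2.0.3) and counted UMIs with UMI-tools. The deposited counts hold 1 added UMI per gene and library, which was subtracted, and a row of totals was left out. Regions come from the column labels. Members and lists were chosen with earlier results of these data known.

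Shares have exact Clopper-Pearson 95% intervals, which cover counting error only. The main tests used edgeR (4.0.16, TMM, at least 20 UMIs over 6 libraries, Benjamini-Hochberg) and DESeq2 (1.42.0) was an alternative. Data for 7507 genes were simulated with 200 changed, all drawn from the 361 tested, and with libraries that vary independently. In them edgeR recovered 17.7% of 2-fold and 88.3% of 4-fold changes in the section comparison and 9.44% and 79.5% between regions. With so many of the tested genes changed and no shared section, these percentages do not give the sensitivity in the data. Members named are the 15 with most UMIs, a set of fixed names, paralogs and the 3 highest and lowest of each fit, of which some are not reported here. Transcript lengths, pseudogenes and promoters are from RefSeq GRCm38.p6. The regions of a section share tissue, and their deviations from the region means correlated at 0.25, 0.009 and -0.03 over 361 genes for sections 1, 2 and 3.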

Additional observations from a re-analysis of the deposited data

Results flagged for a closer look

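In some of the results described, section 1 lay above both other sections in one region and below both in the other. Among genes this was seen for 13.9% of the genes tested and for 3 of the 32 members tested, Rpl41, Rps15a and Rps10 (named after its values were seen, 13, 0 and 2 UMIs in DG and 3, 1 and 3 UMIs in CA1). The difference was not tested beyond the interaction fit, in which each region's section 1 is a single library and none of these genes passed. The log2 section difference in DG minus that in CA1 was 1.07 for Rpl41, which held 18, 2 and 5 UMIs in DG and 9, 3 and 7 UMIs in CA1. It was 2.45 for Rps15a, with 14, 2 and 3 UMIs in DG and 2, 1 and 5 UMIs in CA1. It was 2.77 for Rps10 and -2.99 for Eef1a1, an elongation factor and no member, which was at 333, 1312 and 794 CPM in DG and 962, 352 and 411 CPM in CA1. It was -1.49 for the elongation factors and 1.13 for the mitochondrial ribosomal proteins, lists of 62 and 114 UMIs.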

How the results depend on the processing

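A count of 0 allows 3 UMIs, or between 167 and 1055 CPM by library, and 43 of the 75 members were below the filter. The section comparison could not be fitted without section 1. Taking the 75 members with Rps6kl1, or with Rps3a1 and Fau, was chosen after seeing the data, as was the filter on sections 2 and 3 alone.

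The log2 share ratio of section 1 over sections 2 and 3 stayed above 0 in every setting run, from 0.70 to 0.98 in DG and from 0.79 to 1.04 in CA1 for all members. With counts as deposited it was 0.98 in DG for all members and 0.79 for Rpl, and the DG over CA1 ratio was 0.13. Leaving out 1 section gave 0.57 to 1.13 for Rps in CA1.

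Genes called between sections numbered 6 with scaling to total UMIs, 1 with at least 10 UMIs, with filterByExpr and with libraries thinned to 2844 UMIs, 14 with no filter, 4 with counts as deposited, 7 with the filter on sections 2 and 3 alone and 0 with DESeq2 or no covariate. Members called were 2 of 32 tested with scaling to total UMIs, where 6 of 361 genes were called. With no filter they were 5 of 75, against 14 of 7507 genes, all 14 higher in section 1. The median log2 fold change over all genes was 0.79 in that fit. With the filter on sections 2 and 3 alone they were 3 of 18, against 7 of 394 genes. With DESeq2 or no covariate they were 0 of 32 members tested. The filterByExpr and thinned fits also gave 0, but tested 1 member and a median of 2 members. With the regions summed per section, added after seeing the data, 4 genes and 1 member, Rps27a, were called. Leaving out libraries or sections gave 0 to 4 genes and 0 to 2 members. Between regions, 0 genes were called with at least 10 UMIs, filterByExpr, no filter or DESeq2 and 0 to 1 when libraries or sections were left out. The replicate block, with section as a factor, called 1 gene and 0 members, as without it.

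Small section differences changed sign. With at least 10 UMIs, no filter and the filter on sections 2 and 3 alone, Rps29 was at 0.12, 0.70 and 0.25, Rps15a at 0.036, 0.62 and 0.15 and Rpl9 at 0.038, 0.60 and 0.16. The median over all genes tested was 0.25, 0.79 and -0.03 in the same fits, against 0.03 in the main fit. Leaving out libraries or sections gave -0.20 to 0.13 for Rps29, -0.44 to 0.70 for Rps15a, -0.56 to 0.47 for Rpl9, -0.026 to 0.39 for Rpl13, -0.33 to 0.59 for Rpl41 and -0.68 to 0.46 for Rps15. Rpl23a was at -0.20 without DG section 3. With the regions summed per section, Rpl13 and Rpl41 were at -0.016 and Rpl23a at -0.0026. The cause was not tested.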
